A study of Mus musculus with 21 samples.

Results

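The genes described here encode the proteins of the cytosolic ribosome in mouse fibro-adipogenic progenitors. They were chosen by symbol alone, as Rpl or Rps with a number and at most 1 letter of a, x, l or y after it, together with Rpsa, Rplp0, Rplp1 and Rplp2 and without pseudogene (-ps) and Rps6k symbols. The rule found 83 of the 55341 genes in the count table, 32 named for the small (40S) subunit and 51 for the large (60S) subunit, and it used no measured value. Of these, 81 passed the filter on low counts, as did 15240 genes in all, and RefSeq lists the tested members Rpl6l and Rps4l as pseudogenes. The 2 members that were not tested were Rpl3l, a paralog known from heart and skeletal muscle, with 1 count in the 5 libraries together, and Rpl10l, a paralog known from testis, also with 1 count. The symbol rule leaves out a few true ribosomal proteins with other names, such as Fau and Rack1, which are given apart.

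FAPs, as these mesenchymal cells of muscle are called for short, help the tissue to repair and can turn into fat or fibrous tissue. The study asked what the transcriptional regulator Prdm16 does in them. The 2 genotypes compared were both with floxed alleles of Prdm16 (Prdm16 Flox/Flox). The group called Prdm16 carried in addition Pdgfra Cre-ERT/+, a tamoxifen-dependent Cre recombinase at a gene that FAPs express, and the control group called WT was Pdgfra +/+, so that WT here means floxed and without Cre. All mice were adults that received tamoxifen on 5 days and, 7 days later, an injection of cardiotoxin, a toxin that destroys muscle fibres. FAPs were sorted 5 days after the injury and grown for 4 to 5 days, so every value is from cultured cells. RNA was sequenced by SMART-seq2 from polyadenylated RNA in 3 libraries labelled WT and 2 labelled Prdm16. Domains of the histone mark H3K9me2 were given for 3 libraries of each genotype and domains of LaminB1 for 1 library of each. Whether the replicates are different animals is not in the labels, so p-values cover only the spread among these samples, which may be technical.

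The libraries held 10657791, 7053114 and 10284864 counts for WT replicates 1 to 3 and 8448654 and 5839587 for Prdm16 replicates 1 and 2. Each tested member had between 9 counts (Rpl6l) and 17603 counts (Rplp0) in a library, with a median of 2445. The targeted gene Prdm16 was counted 171, 94 and 59 times in WT and 91 and 86 times in Prdm16, so the whole-gene count did not separate the labels. The p-values in the authors' deposited table were matched to within 1% for 15240 of 15240 genes when the library labelled WT replicate 3 stood in the Prdm16 pair in place of the library labelled Prdm16 replicate 1, against 179 genes (1.17%) with the labels as given. The library labelled Prdm16 replicate 2 held 15 counts of Xist, the RNA of the inactive X chromosome, and the others held 3483 to 4652. All directions follow the labels. The counts and medians over the members and the lists, and the share of counts, are also given with the WT replicate 3 and Prdm16 replicate 1 labels exchanged or with both of these libraries left out, and the values of single genes by the labels only. The 12 FAP markers looked at differed widely in level. Pdgfra had 3306 to 8544 counts per library and Dcn 1387 to 6254. Lum had 87 to 813 counts, Pi16 30 to 400 and Dpp4 0 to 14, with the lowest values of these 3 and of Dcn in WT replicate 3.

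Ribosomal proteins are built into the 40S subunit, which reads the messenger RNA, and the 60S subunit, which joins the amino acids. Most are needed in equal numbers per ribosome, and their messenger RNAs carry a run of pyrimidines at the 5′ end (the TOP motif) through which the kinase mTORC1 and the RNA-binding protein LARP1 set their translation and stability. Growing cells, such as progenitors expanding after injury, are known to make them in large amounts.

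The start sites of the members are shown because the run of pyrimidines is a known feature of these genes. Each line gives 40 bases before and 20 bases from the start in the RefSeq promoter table (GRCm38.p6), 5′ to 3′ on the gene's strand. For Rps2, Rpl38 and Rpl39l the RefSeq gene begins farther upstream than this start. Capitals mark a run of at least 6 pyrimidines (C or T) that touches the window from 5 bases before the start to its 7th base. The first 6 genes are those with the lowest log2 fold changes among members with a single RefSeq start in the table, and the last 4 are those with the highest.
Rps2 (chr17:24720023-24720082, plus strand): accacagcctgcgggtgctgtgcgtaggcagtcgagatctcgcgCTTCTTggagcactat
Rpl39l (chr16:10170188-10170247, plus strand): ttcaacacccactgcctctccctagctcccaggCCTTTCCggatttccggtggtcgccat
Rpl37 (chr15:5116573-5116632, plus strand): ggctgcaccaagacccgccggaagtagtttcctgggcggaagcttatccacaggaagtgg
Rpl37a (chr1:72711220-72711279, plus strand): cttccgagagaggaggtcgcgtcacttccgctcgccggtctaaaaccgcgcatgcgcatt
Rpl38 (chr11:114668540-114668599, plus strand): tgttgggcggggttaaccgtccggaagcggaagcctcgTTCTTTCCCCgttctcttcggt
Rpl39 (chrX:37085203-37085262, minus strand): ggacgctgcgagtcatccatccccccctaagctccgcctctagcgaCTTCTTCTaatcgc
Rplp0 (chr5:115559427-115559486, plus strand): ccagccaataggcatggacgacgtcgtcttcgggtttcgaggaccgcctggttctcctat
Rpl4 (chr9:64173347-64173406, plus strand): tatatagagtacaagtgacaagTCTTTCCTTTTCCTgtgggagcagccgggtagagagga
Rpl13a (chr7:45128726-45128785, minus strand): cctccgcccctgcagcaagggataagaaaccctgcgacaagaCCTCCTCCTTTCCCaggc
Rpl32l (chr10:20208399-20208458, plus strand): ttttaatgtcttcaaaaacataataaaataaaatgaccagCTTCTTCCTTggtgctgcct
A marked run stands in members at both ends of the order of fold changes, and it is missing by this rule from Rpl37, Rpl37a and Rplp0.

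Over the group, 61 of the 83 members were matched to the table, with 73 promoters of 300 bases (250 before and 50 from the start). A pyrimidine run by the rule above was found for 34 of 61 matched members (55.7%) and for 25% of all 27025 genes in the table. The letters CTTTCC on the gene's strand from 50 bases before to 50 after the start were found in 19 members (31.1%, against 5.43% of all genes). CTTTTC in the same window was found in 9 members (14.8%, against 4.32%), and either can lie within the pyrimidine run. In the whole promoter and on both strands, CCGGAAG, the core bound by ETS-family factors, was found in 25 members (41%, against 9.93%). ATGGCGGC, part of the YY1 motif, was found in 4 (6.56%, against 2.6%). The letters TATAAA in the 50 bases before the start were found in 0 of 61 members and in 3.15% of all genes. These shares describe letters in fixed windows, with no matching for base composition, and a gene with several starts counts once if any start holds the motif.

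Ribosomal protein messenger RNA made up a smaller part of the 2 libraries labelled Prdm16 than of the 3 labelled WT. The 83 members took 3.288%, 3.273% and 3.167% of the counts in WT replicates 1, 2 and 3, and 2.693% and 2.234% in Prdm16 replicates 1 and 2. The 3 WT libraries lie close together, the groups do not overlap, and Prdm16 replicate 2 is the lowest of the 5. The means were 3.24% ± 0.0657 (SD, n = 3) and 2.46% ± 0.325 (SD, n = 2), a ratio of 0.76. With the 2 libraries in doubt exchanged the groups overlap, the means are 3.08% (n = 3) and 2.7% (n = 2) and the ratio is 0.876. With both left out the means are 3.28% (n = 2) and 2.23% (n = 1), a ratio of 0.681. Both subunits shared in this: the 40S genes took 1.371% to 1.442% in WT and 1.154% and 0.9535% in Prdm16, and the 60S genes 1.796% to 1.862% against 1.539% and 1.281%. Leaving mitochondrially encoded transcripts out of the totals gave 3.335%, 3.347% and 3.217% against 2.743% and 2.287%. In a bulk library, fewer cells with many ribosomes and less ribosomal protein RNA per cell cannot be told apart.

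**Figure D1:**
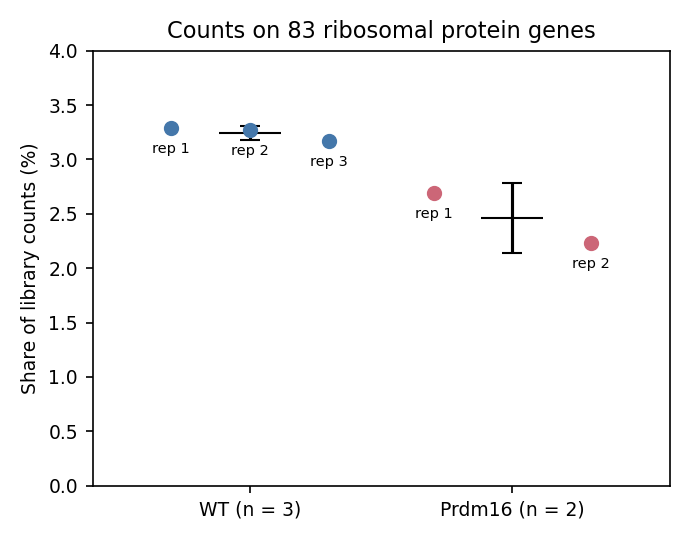
Share of each RNA library's counts that fell on the 83 ribosomal protein genes, in percent, with 1 point per library and a horizontal bar with whiskers for the mean and SD of each labelled genotype. The 3 WT libraries lie between 3.167% and 3.288%, and the 2 Prdm16 libraries at 2.693% and 2.234%, by the labels as given.

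Gene by gene the difference was small, nearly the same for most members, and not called. The median log2 fold change of the 81 tested members (Prdm16 over WT) was -0.415, a ratio of 0.75, against 0.00 for all genes tested. The interquartile range was -0.49 to -0.33 over the members and -0.23 to 0.23 over all genes. A negative value was found for 79 of 81 members (49.9% of all genes), and 13% of all genes had a value below the members' median. Both Prdm16 libraries lay below all WT libraries for 74 of 81 members (91.4%), where 8.96% of all genes did so. They lay above all WT libraries for 1 member, Rpl32l, against 8.83% of all genes.

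By edgeR's quasi-likelihood test, 0 of 81 members had an adjusted p under 0.05, as had 0 of 15240 genes (0%), and the adjusted p of each member was 0.9996. At an unadjusted p under 0.05, 36 of 81 members (44.4%) were lower, against 1.37% of all genes, and 0 were higher, against 1.11%. The smallest unadjusted p of a member was 0.0156, for Rpl39. DESeq2 also called 0 members (0.00311% of all genes), with 29 lower at an unadjusted p under 0.05 (0.783% of all genes). Limma-voom called 0 members (0% of all genes), with 39 lower at that limit (0.965%). The other settings called 0 members too, where the share of all genes called was 0.0777% without the filter on low counts, 0.00656% with upper-quartile scaling, library totals or the replicate block, 0.0245% without Prdm16 replicate 1, 0.614% without both libraries in doubt and 1.19% with these exchanged. The members share their libraries, so these counts are not independent of one another.

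Single libraries set how many members passed the unadjusted limit. The 36 became 8 without WT replicate 1 (0.616% of all genes), 27 without WT replicate 2 (3.41%) and 41 without WT replicate 3 (3.06%). They became 13 without Prdm16 replicate 1 (1.02%), 0 without Prdm16 replicate 2 (0.207%), and 1 with the 2 libraries in doubt exchanged (5.7%). Members with every Prdm16 library below every WT library numbered 75 without WT replicate 1, 2 or 3 (14.1%, 18% and 18.7% of all genes), 76 without Prdm16 replicate 1 (21.8%) and 74 without Prdm16 replicate 2 (16.6%). They numbered 76 without both libraries in doubt (32.9%) and 1, Rps4l, when these were exchanged (14.1%), so where single genes are said to have separate groups, this holds for the labels as given. The median over members was -0.299 without Prdm16 replicate 2, -0.573 without Prdm16 replicate 1, -0.612 without both libraries in doubt and -0.204 when these were exchanged, and it was negative in each of the 14 settings run.

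**Figure D2:**
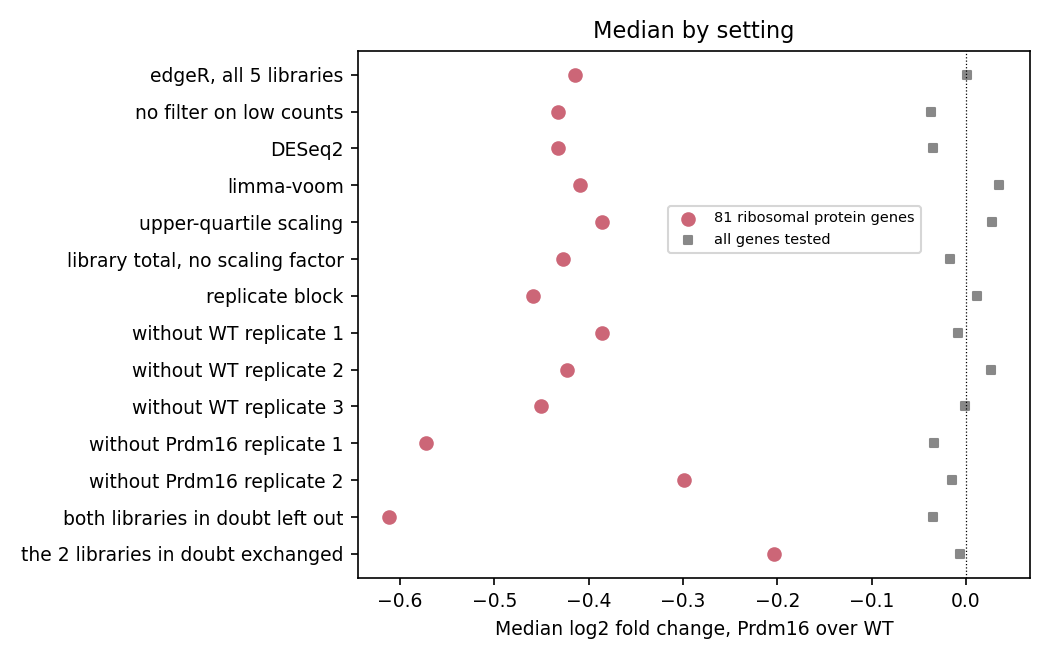
Median log2 fold change (Prdm16 over WT) of the 81 members (circles) and of all genes tested (squares) under 14 settings of the analysis. The members' median lies between -0.612 and -0.204, with the value nearest 0 when the 2 libraries in doubt were exchanged and the lowest when both were left out.

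The order of the libraries was alike across the members. Against the mean of the WT libraries, the median member stood at 0.08, 0.01 and -0.08 (log2) in WT replicates 1, 2 and 3, and at -0.30 and -0.54 in Prdm16 replicates 1 and 2. Prdm16 replicate 1 was below the WT mean for 76 of 81 members and Prdm16 replicate 2 for 79. Prdm16 replicate 2 was the lowest of the 5 libraries for 76 members, and WT replicate 1 the highest for 51. The closest followers of the common profile were Rpl36, Rpl19 and Rps15a (correlation with the median of the other members over the 5 libraries of 1.00, 0.999 and 0.998), and the farthest were Rpl32l (-0.976), Rpl6l (-0.423) and Rpl23a (0.177). Prdm16 replicate 2 is also the library with few Xist counts, and the 4 members on the X chromosome (Rpl10, Rpl36a, Rpl39 and Rps4x) had a median log2 fold change of -0.47 beside -0.41 for the 77 others.

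**Figure D3:**
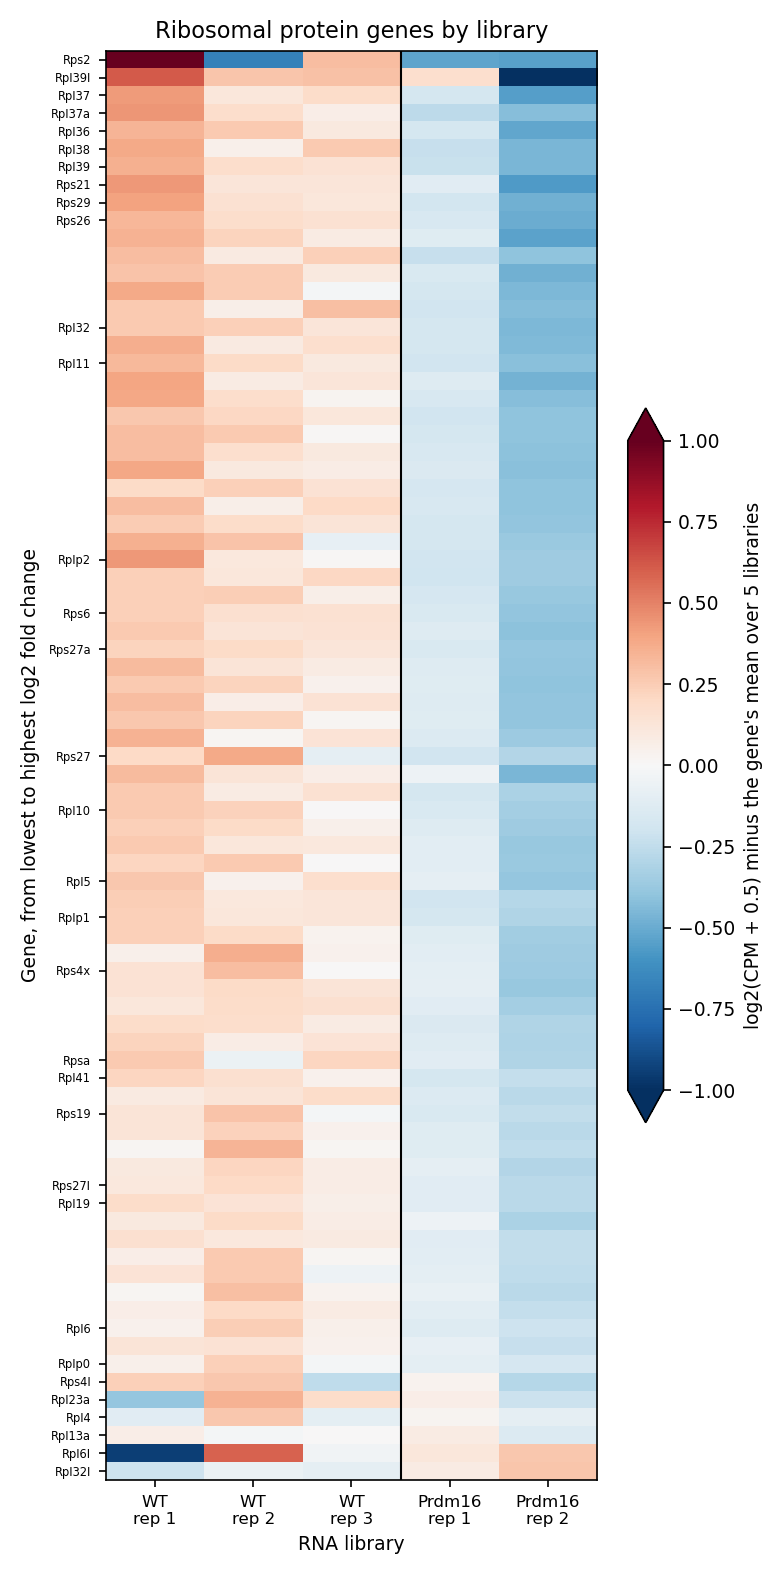
Level of 80 of the 81 tested members in each RNA library as log2(CPM + 0.5) minus the gene's mean over the 5 libraries, with colours limited to the range from -1 to 1 and genes ordered from the lowest to the highest log2 fold change (rows of the genes described are labelled). Most rows run from red in the WT libraries to blue in Prdm16 replicate 2. The 7 members described as exceptions depart from this (Rps2 at the top, and Rps4l, Rpl23a, Rpl4, Rpl13a, Rpl6l and Rpl32l at the bottom).

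Levels from here on are counts per 1000000 of the scaled library size (CPM), and gene positions are those of RefSeq on GRCm38.p6. All 32 members named for the 40S subunit had negative log2 fold changes, with a median of -0.42. Of these 32, 30 had both Prdm16 libraries below all WT libraries (93.8%, against 8.96% of all genes). With the 2 libraries in doubt exchanged, 1 did so (14.1% of all genes) and the median was -0.25. By the labels, 13 had an unadjusted p under 0.05 (40.6%, against 1.37% of all genes lower at that limit). Rps6, the 40S protein that S6 kinase phosphorylates when mTORC1 is active, had 248, 236 and 233 CPM in the WT libraries and 189 and 160 CPM in the Prdm16 libraries. The groups are apart, with a log2 fold change of -0.45 (SE 0.18). Rps26, which lies where the messenger RNA leaves the 40S subunit, had 488, 438 and 430 CPM against 347 and 274 CPM (log2 fold change -0.54). Rps21 had 195, 157 and 157 CPM against 134 and 97.0 CPM (-0.56), and Rps29 had 138, 116 and 113 CPM against 91.9 and 74.8 CPM (-0.55). In each of these, Prdm16 replicate 2 is the lowest library and Prdm16 replicate 1 lies between it and the WT libraries.

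Other 40S proteins with roles of their own had the same order with a smaller distance. Rps19, the gene most often mutated in Diamond-Blackfan anaemia, had 448, 500 and 405 CPM in WT and 369 and 346 CPM in Prdm16 (log2 fold change -0.34, SE 0.18). Rpsa, also known as the laminin receptor precursor, had 631, 505 and 612 CPM against 486 and 426 CPM (-0.35). Rps27a, which is made as a fusion with ubiquitin, had 341, 335 and 319 CPM against 264 and 225 CPM (-0.44). The WT and Prdm16 libraries do not overlap for any of these 3 genes.

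Among the 49 tested 60S members, 47 had negative log2 fold changes and the median was -0.41. Both Prdm16 libraries lay below all WT libraries for 44 (89.8%, against 8.96% of all genes). With the 2 libraries in doubt exchanged, this held for 0 (14.1% of all genes) and the median was -0.19. By the labels, an unadjusted p under 0.05 was found for 23 (46.9%, against 1.37% of all genes lower at that limit). Rpl37 (chr15:5116613-5119140), a small zinc-binding protein of the 60S subunit, had 311, 250 and 263 CPM in WT and 204 and 158 CPM in Prdm16. The means were 275 ± 32.4 CPM (SD, n = 3) and 181 ± 33.0 CPM (SD, n = 2), and the log2 fold change was -0.60 (SE 0.20). Rpl37a (chr1:72711260-72713813) had 365, 303 and 281 CPM against 223 and 199 CPM, and a log2 fold change of -0.58. For both genes every Prdm16 library lies below every WT library.

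Rpl38 (chr11:114667818-114672333), whose loss in mice is known to alter skeletal patterning, had 223, 178 and 206 CPM in WT and 147 and 125 CPM in Prdm16 (log2 fold change -0.57). Rpl39 (chrX:37082518-37085222), which lines the exit tunnel of the 60S subunit, had 218, 193 and 189 CPM against 146 and 124 CPM (-0.56). Rpl36 (chr17:56610094-56614246) had 212, 201 and 179 CPM against 148 and 117 CPM (-0.58). All 3 repeat the same order of libraries, with Prdm16 replicate 2 lowest and separate groups. Rpl5 and Rpl11, which with 5S ribosomal RNA bind MDM2 and so link ribosome assembly to p53, had log2 fold changes of -0.40 and -0.51. Rpl5 had 342, 292 and 318 CPM against 266 and 216 CPM, and Rpl11 363, 331 and 310 CPM against 254 and 217 CPM. Rpl10, which joins the 60S subunit late and completes it, had 664, 648 and 555 CPM against 498 and 438 CPM (-0.41).

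The stalk of the 60S subunit, which recruits the elongation factors, is built from Rplp0, Rplp1 and Rplp2. Rplp0, the base of the stalk and the member with the most counts, had 1693, 1937 and 1617 CPM in WT and 1530 and 1457 CPM in Prdm16, a log2 fold change of -0.23. Rplp1 had 528, 485 and 488 CPM against 397 and 364 CPM (-0.39), and Rplp2 344, 274 and 258 CPM against 223 and 200 CPM (-0.47). All 3 have separate groups, and for Rplp0 the gap between the nearest libraries is small beside the spread within WT.

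In both subunits the median was lower among members with higher numbers in the gene symbol. These numbers were given by position on protein gels and run roughly from larger to smaller proteins, so they are a rough stand-in for size; transcript lengths were not used here, and the relation was looked for after the data had been seen. For the 60S subunit, the median log2 fold change was -0.34 for Rpl3 to Rpl10 (10 members), -0.37 for numbers 11 to 20 (10 members), -0.44 for 21 to 30 (11 members) and -0.53 for 31 to 41 (12 members). In these classes 1, 4, 6 and 10 members had an unadjusted p under 0.05, where 1.37% of all genes were lower at that limit. Across 43 genes Spearman's rho between number and log2 fold change was -0.58. For the 40S subunit, the medians were -0.38 for numbers 2 to 10 (9 members), -0.42 for 11 to 20 (11 members) and -0.44 for 21 to 29 (9 members), with a rho of -0.30 across 29 genes. Both are descriptions across genes of the same 5 libraries and carry no p.

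Over the 14 settings the rho was -0.59 to -0.28 for the 60S subunit and -0.37 to -0.19 for the 40S subunit, with -0.28 for the 60S subunit when the 2 libraries in doubt were exchanged. Rpl41, the smallest ribosomal protein, did not follow this order. It had 544, 522 and 482 CPM against 415 and 396 CPM, a log2 fold change of -0.35.

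**Figure D4:**
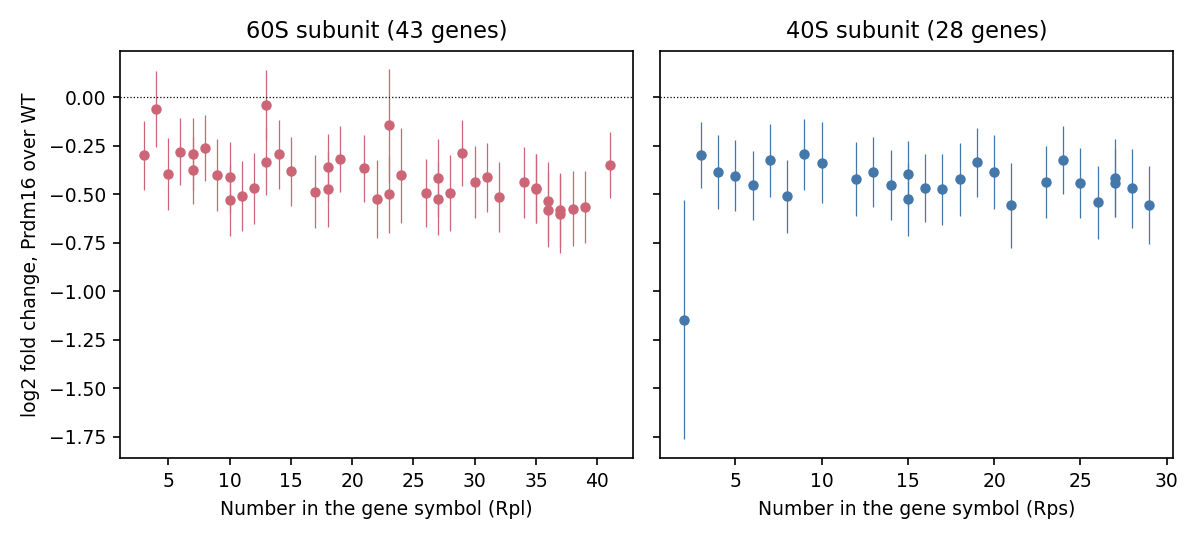
Log2 fold change of numbered members (Prdm16 over WT, edgeR) against the number in the symbol, for 43 genes of the 60S subunit (left) and 28 of the 29 of the 40S subunit (right), with the bars showing 1 SE. Values of the 60S genes decline from a median of -0.34 at numbers 3 to 10 to -0.53 at 31 to 41, and Rps2 is the low point with a wide bar on the right.

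Of the 81 members, 7 did not have both Prdm16 libraries below all WT libraries: Rps2, Rps4l, Rpl4, Rpl13a, Rpl23a, Rpl6l and Rpl32l. Rps2 (chr17:24718121-24721927), at the entry of the messenger RNA channel, had the lowest log2 fold change of the group, -1.15 with an SE of 0.62. Its counts were 5298, 820 and 2500 in WT and 1117 and 726 in Prdm16, or 510, 118 and 233 CPM against 130 and 129 CPM. WT replicate 1 is far above the rest and WT replicate 2 below both Prdm16 libraries, and without WT replicate 1 the log2 fold change was -0.45. Rpl4 (chr9:64173387-64178562), a large protein that reaches into the exit tunnel, had 982, 1280 and 996 CPM against 1084 and 1001 CPM. Its groups overlap, and the log2 fold change of -0.06 had an SE of 0.20.

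Rpl13a (chr7:45125563-45128745), which is also known for silencing inflammatory transcripts outside the ribosome, had 114, 107 and 109 CPM in WT and 115 and 98.8 CPM in Prdm16, a log2 fold change of -0.04. The WT libraries lie between the 2 Prdm16 libraries. Rpl23a, a docking site for factors at the tunnel exit, had 18.3, 30.7 and 27.2 CPM against 25.2 and 20.6 CPM (-0.14 with an SE of 0.29). Its gene overlaps Tlcd1 in the annotation, and the sources used here do not say whether the authors counted by strand. The signs of Rpl4, Rpl13a and Rpl23a turn when a single library is left out.

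Several members have a paralog that ends in l, and the pairs differed in level. The signs were opposite for Rpl6 with Rpl6l and for Rpl32 with Rpl32l, where the paralogs had low counts. Rps27l, a p53-responsive paralog of Rps27 (chr9:66944624-66949522), had 500, 535 and 490 CPM in WT and 429 and 385 CPM in Prdm16 (log2 fold change -0.32). Rps27 itself had 231, 262 and 188 CPM against 176 and 164 CPM (-0.42), and both genes have separate groups. Rpl39l (chr16:10170197-10174911), a paralog of Rpl39 known from testis, had 27.2, 21.4 and 21.6 CPM against 19.8 and 6.57 CPM (-0.81 with an SE of 0.44). The low value of Prdm16 replicate 2 sets that change: it was -1.86 without Prdm16 replicate 1 and -0.23 without Prdm16 replicate 2.

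Rps4x, the X-linked form of Rps4, had 847, 949 and 766 CPM in WT and 715 and 594 CPM in Prdm16 (-0.38), with separate groups. Rps4l, which RefSeq lists as a transcribed pseudogene, had 72.5, 74.0 and 51.3 CPM against 63.0 and 50.3 CPM (-0.22), and its groups overlap. Rpl6l, listed as a pseudogene of Rpl6, had 0.866, 3.44 and 2.05 CPM against 2.33 and 2.66 CPM, while Rpl6 had 457, 525 and 459 CPM against 407 and 384 CPM (-0.28). Rpl32l, which lies within Map7, had 1.25, 1.43 and 1.40 CPM against 1.63 and 1.95 CPM, and Rpl32 had 791, 780 and 715 CPM against 584 and 483 CPM (-0.51). Rpl6l and Rpl32l are the 2 members above 0 (0.26 and 0.39, with SEs of 0.65 and 0.54), and both were near the limit of the filter on low counts. Reads of a gene and its near-identical copies may have been split by the authors' counting, so the values of paralogs and of members with many pseudogenes are uncertain.

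Ribosomal proteins with other symbols were lower as well by the labels as given. All 9 genes of a list of related symbols had negative log2 fold changes, with a median of -0.24. Of these, 5 (55.6%) had both Prdm16 libraries below all WT libraries, against 8.96% of all genes. At an unadjusted p under 0.05, 2 (22.2%) were lower, against 1.37% of all genes. With the 2 libraries in doubt exchanged, 5 of 9 were negative and the median was -0.02. After this exchange 0 lay below all WT libraries (14.1% of all genes). With both left out, 8 of 9 were negative and the median was -0.22. Fau, which gives the 40S protein eS30, had 339, 289 and 267 CPM in WT and 227 and 207 CPM in Prdm16 (log2 fold change -0.46). Rpl22l1, a paralog of Rpl22, had 156, 163 and 145 CPM against 126 and 81.7 CPM (-0.57). Rack1, a signalling scaffold on the head of the 40S subunit, had 720, 640 and 805 CPM against 621 and 597 CPM (-0.24). Rps19bp1, which binds Rps19 and is no subunit, stood at -1.15 with an SE of 0.52.

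The genes that build ribosomes, and the translation initiation factors, had medians near 0 by the labels. Of 65 ribosome assembly factors, 36 had negative and 29 positive values, with a median of -0.02. Both Prdm16 libraries lay below all WT libraries for 3 (4.62%, against 8.96% of all genes). Npm1, the nucleolar chaperone nucleophosmin, had 596, 629 and 652 CPM against 550 and 530 CPM (-0.21), and Ncl, nucleolin, had 393, 434 and 558 CPM against 421 and 440 CPM (-0.10). Of 15 RNA polymerase I genes, which transcribe ribosomal RNA, 10 had negative values with a median of -0.05, and Znrd1, a small subunit, had the lowest p (-0.58, unadjusted p = 0.0417 by edgeR, not called). Of 28 translation initiation factors, 18 had negative values with a median of -0.08, and Eif3k had the lowest p (-0.45). Both Prdm16 libraries lay below all WT libraries for 3 RNA polymerase I genes (20%) and 7 initiation factors (25%), against 8.96% of all genes. With the 2 libraries in doubt exchanged, 0 genes of these lists did so (14.1% of all genes). With the 2 libraries in doubt exchanged, the medians were 0.19 for assembly factors (55 of 65 positive), 0.02 for RNA polymerase I and 0.12 for initiation factors (23 of 28 positive), and with both left out they were 0.06, -0.01 and 0.00.

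Elongation factors and other TOP messenger RNAs lay in between. Of 20, 15 had negative values and the median was -0.21. Both Prdm16 libraries lay below all WT libraries for 7 (35%, against 8.96% of all genes). The median was -0.06 with the 2 libraries in doubt exchanged and -0.23 with both left out. Some abundant members of the list had values above 0. Eef1a1, which brings aminoacyl-tRNA to the ribosome, had 2463, 3393 and 2646 CPM in WT and 3007 and 2868 CPM in Prdm16 (0.05). Eef2, the translocase, had 1891, 1982 and 1788 CPM against 2033 and 2030 CPM (0.11), with both Prdm16 libraries above all WT libraries. Tpt1, another TOP messenger RNA, had 623, 438 and 494 CPM against 475 and 370 CPM (-0.30), and its groups overlap.

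Genes of the mTORC1 pathway and TOP regulators had a median of 0.03, with 11 of 20 positive, and of 0.06 and 0.05 with the libraries in doubt exchanged or left out. Larp1, the RNA-binding protein that holds TOP messenger RNAs, had 74.4, 61.9 and 55.7 CPM in WT and 77.0 and 104 CPM in Prdm16 (log2 fold change 0.50, SE 0.23). Rptor, the mTORC1 subunit that binds substrates, had 30.01, 26.2 and 32.8 CPM against 35.5 and 44.2 CPM (0.42). Both have their Prdm16 libraries above all WT libraries, with the highest value in Prdm16 replicate 2. Mtor, the kinase itself, had 87.4, 38.6 and 69.3 CPM against 64.1 and 62.3 CPM (-0.04). Deptor, an inhibitor of the kinase, stood at -0.42 with an SE of 0.25.

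Lower values of like size were also found outside the cytosolic ribosome. Of 75 nuclear genes for subunits of the respiratory chain, 68 had negative values and the median was -0.40. Both Prdm16 libraries lay below all WT libraries for 58 (77.3%, against 8.96% of all genes). An unadjusted p under 0.05 was found for 25 (33.3%, against 1.37% of all genes lower at that limit). Atp5k, a small subunit of ATP synthase, had 113, 89.9 and 91.4 CPM against 70.6 and 60.2 CPM (-0.58), and Ndufa1 of complex I had 139, 122 and 105 CPM against 97.5 and 79.6 CPM (-0.47). Both have separate groups with Prdm16 replicate 2 lowest. Of 77 mitochondrial ribosomal proteins, 70 had negative values, the median was -0.25, 32 (41.6%) had separate groups and 4 had an unadjusted p under 0.05. After exchange of the libraries in doubt, the medians were -0.21 for the respiratory chain (6 of 75 with separate groups) and -0.16 for the mitochondrial ribosome (15 of 77), and with both left out they were -0.55 (68 of 75) and -0.41 (62 of 77), where 14.1% and 32.9% of all genes had separate groups. None of the companion lists held a called gene by edgeR (0% of all genes were called), and the difference between the lists was not tested.

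**Figure D5:**
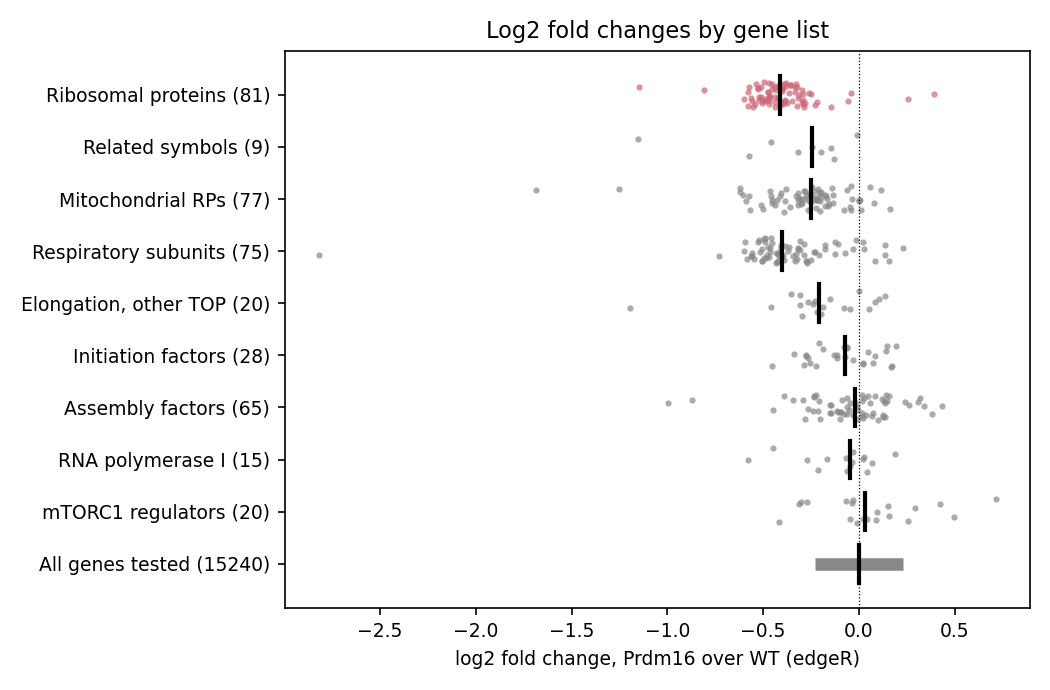
Log2 fold changes (Prdm16 over WT, edgeR) of each tested gene in 9 lists, with the number of genes in brackets, 1 point per gene, a vertical bar at the list's median and, for all 15240 genes, a grey bar over the interquartile range. Ribosomal proteins (median -0.41) and respiratory subunits (-0.40) lie left of 0, while assembly factors (-0.02) and mTORC1 regulators (0.03) centre near 0.

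Muscle contractile genes moved with the genotype labels in the other direction from the ribosomal proteins. Satellite cell and myoblast markers did not separate the labels. All 16 muscle contractile genes were on the positive side, with a median log2 fold change of 0.95. Of these 16, 12 had both Prdm16 libraries above all WT libraries, where 8.83% of all genes did so. Their summed level was 412, 641 and 1261 CPM (here relative to the library total) in WT replicates 1, 2 and 3 and 1403 and 1461 CPM in Prdm16, so the order of the 5 libraries is the reverse of that of the ribosomal protein share. With the 2 libraries in doubt exchanged these sums overlap, the median was 0.47 and 2 of 16 genes had separate groups (13.3% of all genes). With both left out the median was 1.24 and 16 of 16 were above (35.2% of all genes). Satellite cell and myoblast markers summed to 246 to 588 CPM in WT and 401 to 516 CPM in Prdm16. Their 7 tested genes had a median log2 fold change of 0.27 by the labels, 0.66 with the exchange and 0.99 with both left out. FAP identity genes summed to 4409 to 8258 CPM in WT and 7149 to 7856 CPM in Prdm16, with the lowest value in WT replicate 3. Their 11 tested genes had a median of 0.19 by the labels, -0.67 with the exchange and -0.255 with both left out. By the labels, 3 of 11 lay above all WT libraries and 0 below (8.83% and 8.96% of all genes). With the exchange, 0 lay above and 6 below (13.3% and 14.1% of all genes). Macrophage markers summed to 20.1 to 25.1 CPM and 24.9 to 32.7 CPM, with Adgre1 and Fcgr1 at 0, and endothelial markers to at most 8.40 CPM in any library, with Tie1 at 0. Pericyte and smooth muscle markers summed to 181 to 488 CPM and 213 to 248 CPM. Schwann and erythroid markers summed to at most 13.3 and 8.05 CPM in any library, with Hba-a2, Hbb-bs and Hbb-bt at 0. The part of muscle cells in the ribosomal protein result was not tested.

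In the authors' deposited table, which groups the libraries differently from the labels as described above, 0 of 81 members were called differentially expressed, where 3.08% of the genes tested here were. An adjusted p was given there for 63 of the 81 members and for 6231 of the 15240 genes. The authors' calls follow limits of their own on fold change and p, unlike the adjusted p under 0.05 used here. The authors' log2 fold changes had a median of -0.10 over the members, and 79 of 81 were below 0 (50.1% of all genes). By edgeR with the 2 libraries in doubt exchanged the median was -0.204. Whether the authors' values were shrunken toward 0 is not said in the sources used here. They ranged from -0.29 for Rps4l to 0.02 for Rpl32l. The authors' comparison uses the same 5 libraries, so it is no second test of the difference.

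Few ribosomal protein genes lay in domains of H3K9me2, a histone mark of silent chromatin, or of LaminB1, which lines the nuclear envelope. In each library 0 to 2 tested members were inside, a smaller share than that of all genes tested. Counts this small say little about the members, and the difference was not tested. A gene was counted in a domain when at least 0.5 of its body was covered, and the 81 tested members are set beside the 13574 tested genes with a position. In H3K9me2, 2 of 81 members were inside in WT replicate 1 (4.8% of those genes), 0 in WT replicate 2 (2.73%) and 1 in WT replicate 3 (3.71%). In the Prdm16 libraries, 1 was inside in replicate 1 (2.62%), and 0 in replicates 2 (3.39%) and 3 (2.94%). In LaminB1, 1 tested member was inside in WT (1.5%) and 0 in Prdm16 (0.604%), with 1 library of each.

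The tested members in these counts were Rpl39l and Rpl10. Rpl39l lay in H3K9me2 domains of WT replicate 1 and Prdm16 replicate 1 and in the LaminB1 domains of WT. Rpl10 (chrX:74270816-74273135), whose RNA was abundant in every library, lay in H3K9me2 domains of WT replicates 1 and 3. The untested Rpl10l, which had 1 count in all, lay in the LaminB1 domains of WT. The domains covered 635 to 1017 Mb in the WT and 575 to 841 Mb in the Prdm16 H3K9me2 libraries, and 693 and 331 Mb in the LaminB1 libraries, so a gene's membership moves with how much was called. The members are spread over 19 chromosomes, with 14 on chromosome 7.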

How the data were processed

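The deposited count table held raw counts per gene, whole numbers with no normalization, for 5 RNA libraries. The deposited comparison table held the authors' log2 fold changes and their p-values, and a mean normalized signal per gene, per the file headers. Each deposited domain list held positions and the authors' score per domain, and the sources used here do not say how it was made. The aligners Bowtie 1.2.2 and STAR 2.7, the counter featureCounts, DESeq2 1.20 and the builds GRCm38, mm10 and dm6 are listed in the submitters' processing notes with no role for each. The deposited normalized counts and the 8 input samples were not used.

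The main test was edgeR 4.0.16 (R 4.3.3), with its default filter on low counts and TMM scaling. Robust quasi-likelihood tests of genotype were two-sided, and p-values were adjusted by Benjamini-Hochberg over all 15240 genes, with a threshold of 0.05. CPM values use the scaled library size. DESeq2 1.42.0, limma-voom (limma 3.58.1), other scalings, no filter, a replicate block and leaving out libraries were alternatives. Domains were joined to gene bodies of GRCm38.p6 in Python 3.11.15, taking the deposited coordinates as GRCm38; 13574 genes tested were located. The depth behind the domains is unknown.

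Named members were those with an unadjusted p under 0.05, the 8 lowest and 8 highest log2 fold changes, a set of well-known subunits, paralogs ending in l with their partners, and up to 3 genes per companion list; a few others of a companion list (Npm1, Ncl, Eef1a1, Eef2, Tpt1, Mtor, Atp5k, Ndufa1) were named for their roles after their values were seen. The members and lists were chosen with earlier results of these data known. Levels per transcript length and protein sequences were not analysed here. Single values of 1 member and of 1 related gene are not reported here, and both remain in the counts and medians.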

Additional observations from a re-analysis of the deposited data

How the results depend on the processing

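The negative median of the 81 members held under each of the 13 alternatives run, and 0 members were called in any of them. The number of all genes called, 0 in the fit by the labels, was 25 without the filter on low counts, 1 each with DESeq2, upper-quartile scaling, library totals and the replicate block, 93 without both libraries in doubt, 182 with these exchanged, and 0 to 4 when 1 library was left out. The count of members lower at an unadjusted p under 0.05 (36) was 0 to 41 when 1 library was left out and 1 with the exchange, and the count with separate groups (74) became 1 with the exchange. The median (-0.415) was -0.573 to -0.299 when 1 library was left out, -0.612 without both libraries in doubt and -0.204 with the exchange, and the difference in share (-0.779 percentage points) was -1.009 to -0.55 when 1 library was left out, -1.05 without both libraries in doubt and -0.384 with the exchange. Of 741 values for 57 named members, 735 kept their direction. The others were of Rpl13a (-0.181 to 0.076 when 1 library was left out), Rpl23a (-0.347 to 0.012, with 0.001 without Prdm16 replicate 2), Rpl4 (-0.146 to 0.076, with 0.008 without Prdm16 replicate 2) and Rpl6l (-0.136 to 0.765). Where results changed, the cause was not tested. The replicate block moved the median to -0.459; only replicate numbers 1 and 2 occur in both genotypes, and the deviations of same-numbered libraries correlated at 0.21 and -0.21, so the numbers are not taken as pairs. The relation to transcript length that had been planned was not run, and the number in the symbol was used in its place, chosen after seeing the data, as were the counts of separate groups, the share and the lists under other groupings and the domain counts over tested members. Counts of 9 to 24 limit what can be said of Rpl6l and Rpl32l.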

Other observations

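Processed pseudogenes of the ribosomal proteins, counted here by their -ps symbols, gave few counts. The 300 such symbols held 16954 counts against 1265036 on the members, and 80 of them were at 0 in every library. After the filter, 69 could be tested, with a median log2 fold change of -0.27, and 48 had negative values. Both Prdm16 libraries lay below all WT libraries for 19 (27.5%, against 8.96% of all genes). With the 2 libraries in doubt exchanged, the median was -0.21 and 8 (11.6%) lay below, against 14.1% of all genes. For most members the pseudogenes were a small fraction, but the -ps symbols of Rps10 held 72.4% as many counts as Rps10 itself, those of Rps16 15.0%, those of Rpl36a 12.9% and those of Rpl38 11.3%. Of the members, 13 overlap another protein-coding gene in the annotation, among them Rpl24 with Zbtb11 and Rpl5 with Dipk1a.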
